A study of Mus musculus with 50 samples.

Results

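Heterozygous loss of Gtf2i was examined in the embryonic mouse brain by comparing 3 RNA libraries whose genotype label names the mutant allele once (gtf2i) with 3 wild-type libraries labelled as the controls of that comparison (wt). Members were chosen by the genotype label alone, and these 6 libraries are 6 of the 50 samples in the series and 6 of its 18 RNA libraries. Every gene in the table, 11708 in all, was tested. All 6 libraries were whole brains of strain FVB/ANTJ at E13.5 (embryonic day), with no treatment given in the labels. Total RNA was depleted of ribosomal RNA before library preparation. The gtf2i genotype was read as 1 mutant and 1 wild-type copy, and the labels do not say how the allele was made. Embryos labelled gtf2i/gtf2i (3 libraries) and a separate comparison of mutants of the neighbouring gene Gtf2ird1 (wt, ird1 and ird1/ird1, 3 libraries each, same strain and age) serve below only to place the gtf2i values. Of those, wt replicate 2 of the Gtf2ird1 comparison stood apart, with 3239117 counts and 0.218% of them mitochondrial, against 0.562% to 1% in the other 17 libraries. Nothing in the labels says whether the embryos came from separate litters, so p-values measure the spread between these samples.

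Gtf2i encodes TFII-I, a transcription factor built from several copies of a helix-loop-helix-like I-repeat. It binds initiator elements and E-boxes at promoters, moves between cytoplasm and nucleus in response to signalling, and also acts on calcium entry from the cytoplasm. Gtf2ird1 and Gtf2ird2 encode relatives with the same type of repeat. In humans all 3 genes lie in or beside the segment whose deletion on 1 chromosome causes Williams syndrome, so that loss of 1 copy is the form of the mutation met in patients.

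The transcript of the mutated gene was examined first. Gtf2i (ENSMUSG00000060261, GRCm38.p6 chr5:134237832-134317678) was at 598, 656 and 617 CPM (counts scaled to a common library total) in the 3 wt brains. The 3 gtf2i brains had 364, 375 and 363 CPM. Every gtf2i brain was below every wt brain, by more than the spread within either group. The means were 624 ± 29.7 CPM in wt and 367 ± 6.5 CPM in gtf2i (SD, n = 3 each), so gtf2i brains kept 58.9% of the wild-type level (95% interval 53% to 65.4%). The log2 fold change was -0.76 (SE 0.071), and its p after Benjamini-Hochberg adjustment over all genes was 0.000501 (edgeR quasi-likelihood). An exact two-sided permutation test on CPM gave p = 0.1, the smallest value that 3 libraries against 3 allow.

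Brains labelled gtf2i/gtf2i still had 82.1 ± 0.571 CPM of Gtf2i (SD, n = 3). The level halfway between wt and gtf2i/gtf2i was therefore 353 CPM, or 56.6% of wt, and the gtf2i mean was close to it. The 9 libraries fell into 3 separate ranges in the order of the genotype labels.

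Gtf2ird1, the adjacent family member (ENSMUSG00000023079, GRCm38.p6 chr5:134357661-134456867), moved the other way. It encodes a transcriptional repressor and lies on the same strand, with 39983 bases between its annotation and that of Gtf2i. Its levels were 97.9, 83.9 and 95.3 CPM in wt and 138, 126 and 143 CPM in gtf2i. All 3 gtf2i brains were above all 3 wt brains. The mean of 136 ± 8.81 CPM was 147% of the wt mean of 92.4 ± 7.47 CPM (SD, n = 3 each, 95% interval of the ratio 128% to 168%). The log2 fold change was 0.55 (SE 0.0914). Its unadjusted p was 3.23e-05, but adjusted over all genes it was 0.15 (edgeR quasi-likelihood), so the gene did not pass the threshold of 0.05. Gtf2ird1 passed it under 6 of 20 other settings, and its adjusted p ran from 0.000855 to 1 over the 20 (edgeR and DESeq2).

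The gtf2i/gtf2i brains had 266 ± 19.4 CPM of Gtf2ird1 (SD, n = 3), above every gtf2i brain. Halfway between wt and gtf2i/gtf2i would be 179 CPM, or 194% of wt, and the gtf2i mean lay below that point. In the separate comparison, brains labelled ird1 had a log2 fold change of 0.61 for Gtf2ird1 against their own wt brains. The difference between the gtf2i and ird1 effects on this gene was -0.06 (SE 0.131, 95% interval -0.33 to 0.21), with an unadjusted p of 0.659 (edgeR, all 18 libraries). This interval holds differences of either sign.

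GTF2IRD1 protein is known to bind GGATTA-type sites and to repress its own promoter, so the sequence before Gtf2ird1 is shown with these letters in capitals on either strand (GGATTA, or TAATCC for the reverse strand). It is the part of the RefSeq promoter window that lies upstream of the annotated gene span, 99 bases at GRCm38.p6 chr5:134456868-134456966, minus strand, 5′ to 3′.

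Gtf2ird1 promoter: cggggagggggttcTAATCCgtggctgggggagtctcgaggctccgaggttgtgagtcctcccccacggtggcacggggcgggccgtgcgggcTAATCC

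This stretch holds 2 matches, whose first letters lie 85 and 6 bases upstream of the gene span. Of 32851 RefSeq promoter windows, 2.61% hold at least 1 match in the stretch of the same length and place in the window, and 0.0548% hold at least 2. A match describes the letters only, and binding to this stretch was not measured here.

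Gtf2ird2, the remaining family member (ENSMUSG00000015942), was at 34.4, 31.9 and 33 CPM in wt and 32.8, 34.5 and 30.8 CPM in gtf2i. The ranges overlapped, with a log2 fold change of -0.02 (SE 0.106). Around Gtf2i, the 17 measured genes within 1 Mb other than Gtf2ird1, with Gtf2ird2 among them, had log2 fold changes between -0.23 and 0.25. For none of them did the libraries separate, and their smallest unadjusted p was 0.148 (edgeR). Limk1, a kinase that controls actin filaments and is also deleted in Williams syndrome, had a log2 fold change of -0.11. Eln, which encodes elastin, had 0.25. When single libraries were left out, Limk1 ran from -0.15 to -0.07 and Eln from 0.06 to 0.43.

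**Figure D1:**
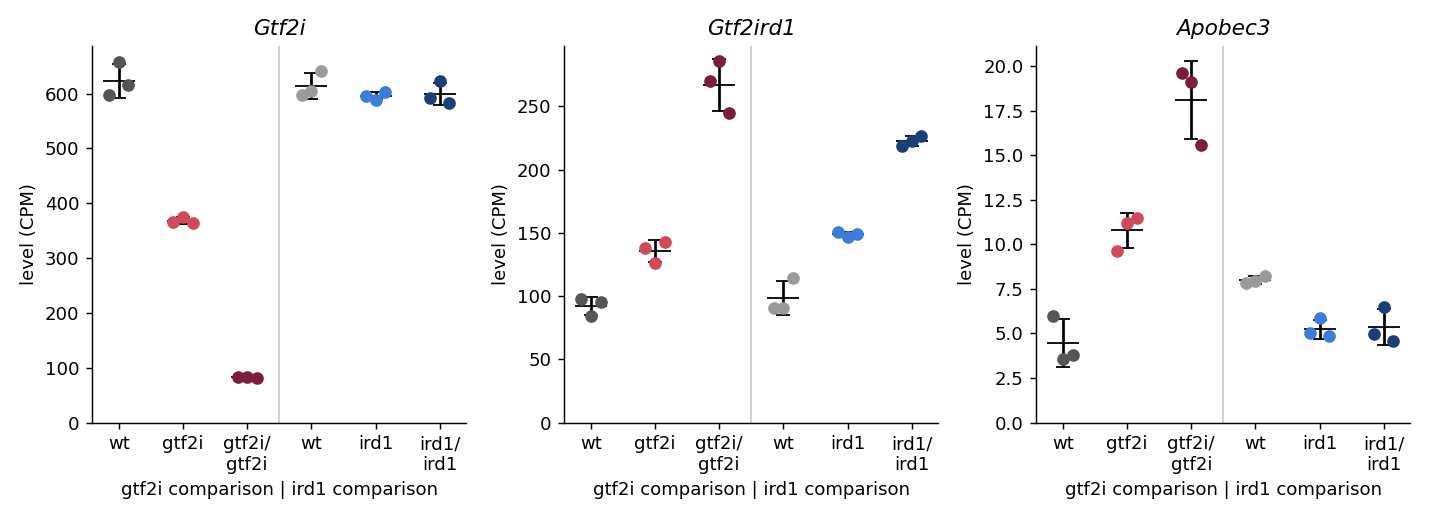
Level of Gtf2i, Gtf2ird1 and Apobec3 in CPM (scaled over all 18 RNA libraries) in each genotype group of both comparisons. Dots are single brains, horizontal lines are means and error bars are SD (n = 3). In each panel the 3 gtf2i brains lie apart from the 3 wt brains of their own comparison and between wt and gtf2i/gtf2i.

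Gtf2i was the only gene called at an adjusted p under 0.05, 1 of 11708 genes (0.00854%). An unadjusted p under 0.05 was reached by 187 genes (1.6%), of which 73 were higher (0.624%) and 114 lower (0.974%) in gtf2i. Uniform p-values would put a share of 0.05 of the genes there, so the p-values here ran high. The 1 call therefore does not show that other genes were unchanged. Without regard to p, the 3 gtf2i libraries lay entirely above or below the 3 wt libraries for 848 genes (7.24%), above for 390 (3.33%) and below for 458 (3.91%). Libraries without a group difference would separate in this way with probability 0.1, and the share seen lay below that. Lack of overlap is therefore no evidence of a difference by itself. For comparison, gtf2i/gtf2i against the same wt libraries called 110 genes (0.94%), and gtf2i/gtf2i against gtf2i called 365 (3.12%). These contrasts share libraries, so their counts are not independent of each other.

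The precision of the comparison sets what could be seen. The median SE of a log2 fold change was 0.129. For 11640 genes (99.4%) the 95% interval of the fold change lay entirely within a 2-fold change either way, and for 10258 genes (87.6%) it lay within 1.5-fold. Only Hccs and Apobec3 had a fitted change of more than 2-fold. The median absolute log2 fold change was 0.07, and 95% of genes were at or below 0.26. The table lists genes above a minimum level in every library, so a gene silent in 1 group was not analysed here.

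**Figure D2:**
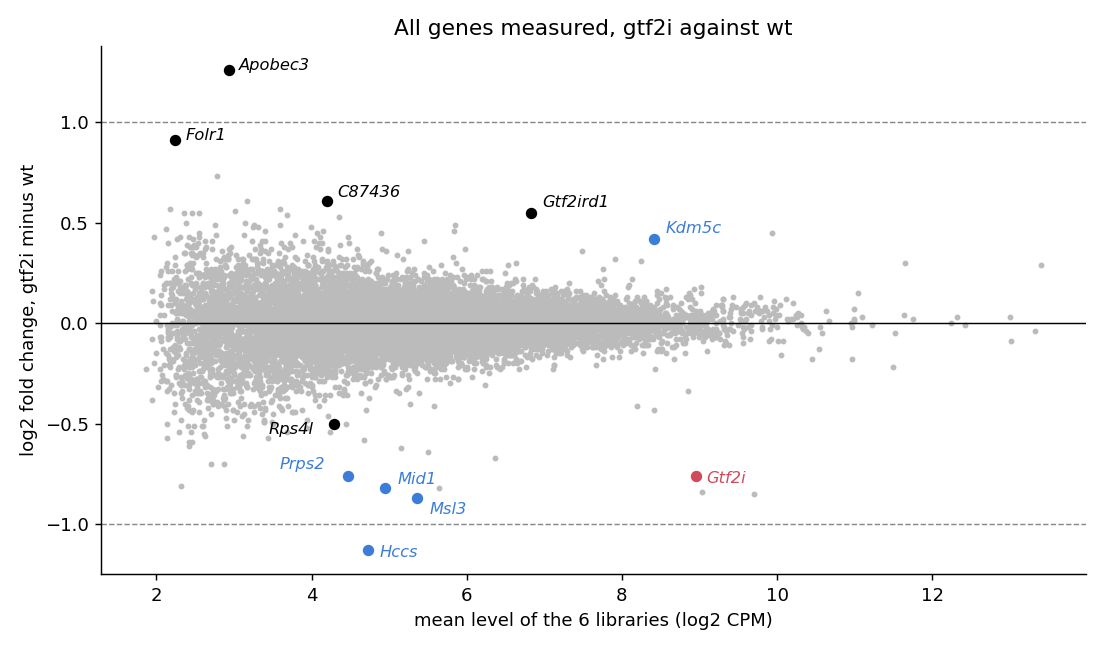
Log2 fold change of gtf2i against wt for all 11708 genes, plotted against the mean level of the 6 libraries on a log2 scale. Dashed lines mark 2-fold changes. Gtf2i (red) lies far below the genes of like abundance, and the X-linked genes Hccs, Msl3, Mid1, Prps2 and Kdm5c (blue) and Apobec3, Folr1, C87436, Gtf2ird1 and Rps4l (black) are the other named points.

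Apobec3 encodes a cytidine deaminase that restricts retroviruses and mobile elements (ENSMUSG00000009585, chromosome 15). Its levels were 6.01, 3.58 and 3.81 CPM in wt, 9.62, 11.2 and 11.5 CPM in gtf2i and 19.5, 18.9 and 15.6 CPM in gtf2i/gtf2i. The 3 genotypes did not overlap and followed the order of the labels. The gtf2i mean of 10.8 ± 0.998 CPM was 241% of the wt mean of 4.47 ± 1.34 CPM (SD, n = 3 each, 95% interval of the ratio 174% to 332%). It was close to the halfway point between wt and gtf2i/gtf2i, 11.2 CPM. Against wt the log2 fold change was 1.26 (SE 0.218, adjusted p 0.15, edgeR), which missed the threshold. It passed under 4 of 19 other settings (adjusted p 0.00262 to 1). The step from gtf2i to gtf2i/gtf2i, 0.74, passed it (adjusted p 0.039), as did gtf2i/gtf2i against wt, 2.00 (adjusted p 0.000182, edgeR).

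The wt brains of the other comparison had more Apobec3, between 7.83 and 8.23 CPM, than the wt brains used here. All 3 gtf2i brains were still above those, and above the ird1 brains (4.85 to 5.84 CPM) and the ird1/ird1 brains (4.58 to 6.5 CPM). In ird1 against its own wt the Apobec3 log2 fold change was -0.60. The difference between the gtf2i and ird1 effects was 1.87 (SE 0.285, 95% interval 1.28 to 2.46), and it passed the threshold (adjusted p 0.00965, edgeR, all 18 libraries). Without the wt library that stood apart it was 1.85 (adjusted p 0.0279). It was 1 of 2 genes called in that test of differences (0.0171% of 11708, where 322 genes, or 2.75%, were at an unadjusted p under 0.05), and the other was Gtf2i at -0.72 (adjusted p 0.00291). The Apobec3 call was lost when wt replicate 2, wt replicate 3 or replicate 1 of the ird1 comparison's wt was left out.

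Of the 25 genes with the smallest unadjusted p, 6 were on the X chromosome, which carries 3.32% of the genes with a known position. Among the first 8 there were 5, and among the first 4 there was 1. Hccs, the enzyme that attaches haem to cytochrome c (ENSMUSG00000031352), was at 34.9, 35.4 and 39 CPM in wt and 15.7, 18.5 and 15.8 CPM in gtf2i. No gtf2i brain came near a wt brain, and the log2 fold change was -1.13 (SE 0.201, adjusted p 0.171 by edgeR). Msl3, a subunit of a histone acetyltransferase complex, was at 46 to 57.9 CPM in wt and 28.6 to 29.3 CPM in gtf2i, a log2 fold change of -0.87.

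Prps2, which makes the ribose phosphate precursor of nucleotides, had a log2 fold change of -0.76, with 27.1 to 29.4 CPM in wt and 13.3 to 21.2 CPM in gtf2i. Mid1, a microtubule-associated ubiquitin ligase, had -0.82, with 37 to 42.2 CPM in wt and 20.5 to 23.3 CPM in gtf2i. Prps2, Msl3, Hccs and Mid1 are the last 4 of the 378 measured X-linked genes at the distal end of the chromosome. All 4 were lower in gtf2i without overlap, against 3.91% of all genes, and none passed the adjusted threshold. Hccs passed it under 6 of 20 other settings, among them the title number as a block (-1.14, adjusted p 0.0293, edgeR), with its adjusted p running from 0.000405 to 1 over the 20. Mid1 passed under 3, Msl3 under 2 and Prps2 under 1 of the 20 (lowest adjusted p 0.0157, 0.00802 and 0.0448, highest 1).

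Kdm5c, a histone demethylase that escapes X inactivation, went the other way. It was at 286, 303 and 288 CPM in wt and at 378, 401 and 395 CPM in gtf2i, with a log2 fold change of 0.42 (SE 0.0904, adjusted p 0.881 by edgeR). All 5 measured genes on a list of X-linked genes that escape inactivation were higher, 2 of them without overlap (3.33% of all genes), with a median of 0.41. The median of the whole chromosome was -0.01, and 16 of its 378 genes (4.23%) were at an unadjusted p under 0.05, against 1.6% of all genes. Both shares were below the 0.05 of uniform p-values. Jpx, a noncoding activator of Xist, had a log2 fold change of 0.56, and Kdm6a, another escaping demethylase, had 0.46.

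**Figure D3:**
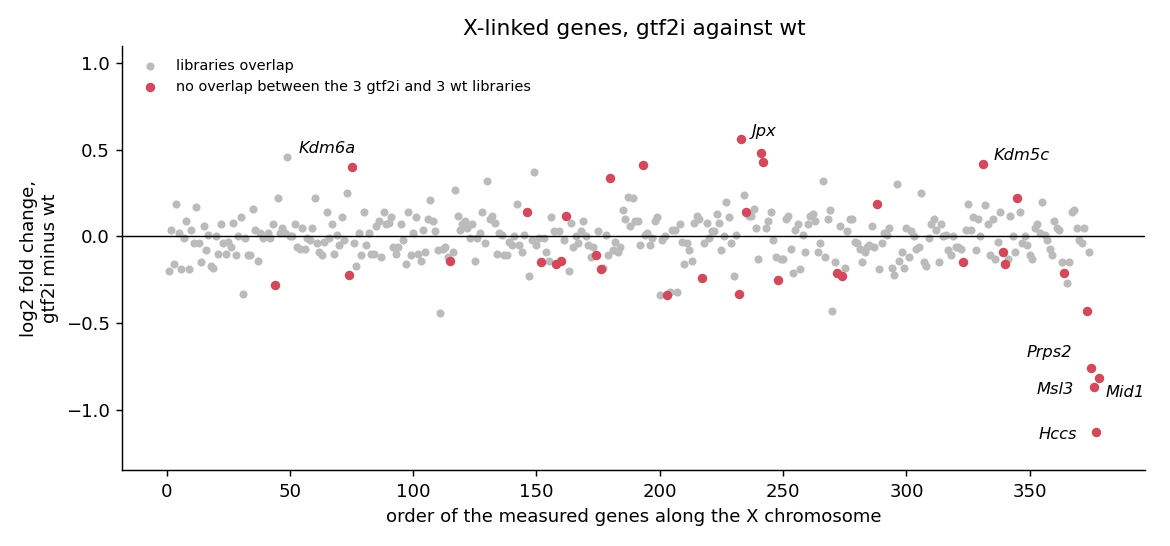
Log2 fold change of gtf2i against wt for the 378 measured X-linked genes, in their order along the chromosome. Red points are genes whose 3 gtf2i libraries lie entirely above or below the 3 wt libraries. The last 4 genes, Prps2, Msl3, Hccs and Mid1, are the lowest of the chromosome.

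The same X-linked genes also varied within genotypes. In each of the 4 other groups of 3 brains, the brain with the least Kdm5c had more Hccs, Msl3, Prps2 and Mid1 than both of the others, which is 16 of 16 gene and group combinations. In gtf2i/gtf2i, that brain had 314 CPM of Kdm5c and 34.2 CPM of Hccs, and the others had 384 to 397 CPM of Kdm5c and 16.9 to 20.4 CPM of Hccs (scaled over 18 libraries). In the wt brains of the ird1 comparison, that brain had 269 CPM of Kdm5c and 30 CPM of Hccs, and the others had 376 to 404 and 10.5 to 16.2 CPM. The highest Kdm5c and lowest Hccs of this group were in the library that stood apart, and replicate 3 had 376 and 16.2 CPM. Inside gtf2i/gtf2i, Hccs thus ran from the range of the gtf2i brains to near that of the wt brains. All 3 wt brains had low Kdm5c and all 3 gtf2i brains had high Kdm5c, so genotype and whatever sets these X-linked levels cannot be told apart in these 6 libraries. The labels do not give the sex of the embryos, and 0 of 6 listed sex chromosome transcripts (Xist and Y-linked genes) are in the table.

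**Figure D4:**
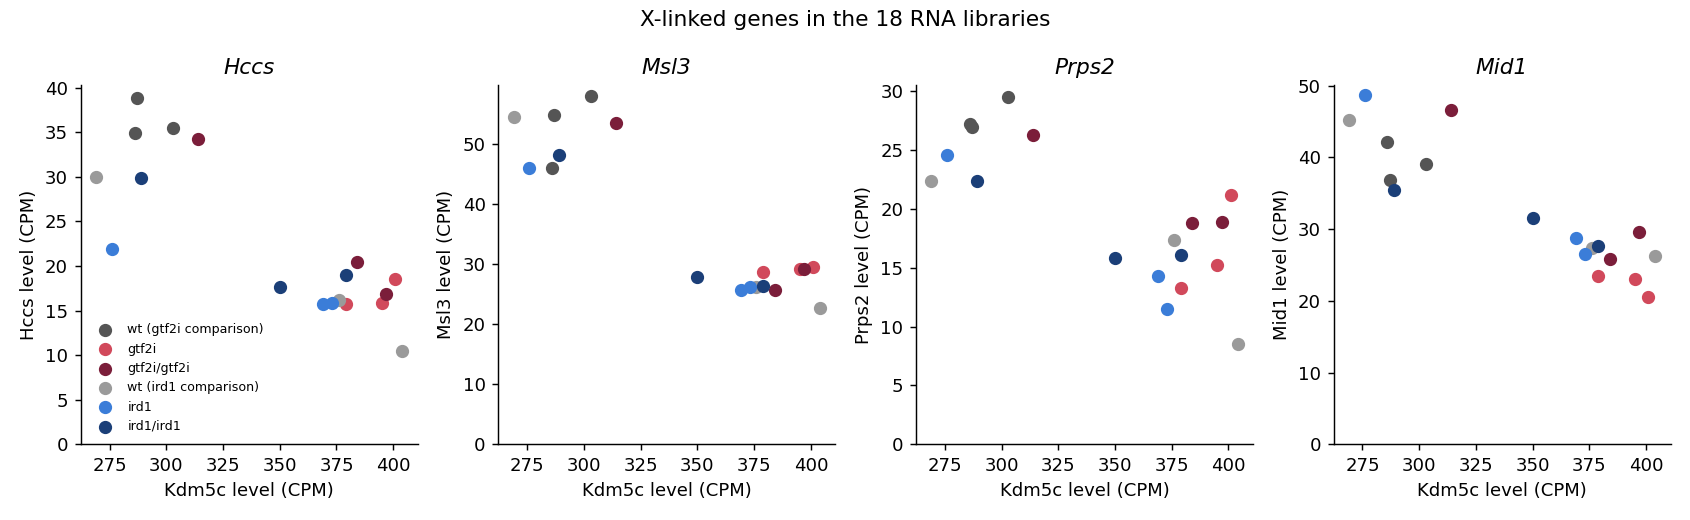
Levels of Hccs, Msl3, Prps2 and Mid1 against the level of Kdm5c, all in CPM, in the 18 RNA libraries coloured by genotype group. The 3 wt brains of the gtf2i comparison sit at the left with high levels and the 3 gtf2i brains at the right with low levels, and brains of each other group are found on both sides.

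The remaining genes named for a small unadjusted p and no overlap had an adjusted p of 1 (edgeR). Fras1, an extracellular matrix protein of basement membranes, was at 82.9, 93.5 and 91.9 CPM in wt and 109, 111 and 110 CPM in gtf2i, a log2 fold change of 0.30. Nos1ap, an adaptor of neuronal nitric oxide synthase, had 0.45. C87436 and Ttc7 both had 0.61. These genes were chosen for their separation in this contrast. In gtf2i/gtf2i against the same wt libraries, the log2 fold changes of the 4 were between 0.15 and 0.31. On the lower side, Kcnq1ot1, the long noncoding RNA that silences an imprinted domain, was at 22.9, 21.9 and 22.4 CPM in wt and 15.8, 13.8 and 16.6 CPM in gtf2i, a log2 fold change of -0.54. In gtf2i/gtf2i it was at 32.8 CPM on average, a log2 fold change of 0.56 against wt (adjusted p 0.0916, edgeR). It is antisense to Kcnq1, and the strand setting of the counts is not given in the sources used here. The uncharacterised transcript 9330162G02Rik had -0.50.

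Genes with the largest called changes in gtf2i/gtf2i were then read in gtf2i, with both contrasts sharing the wt libraries. Rps4l, a ribosomal protein gene with near-identical copies whose reads may be shared, was at 24.4, 20.2 and 23.8 CPM in wt and 18.3, 13.1 and 17 CPM in gtf2i, and at 143 CPM on average in gtf2i/gtf2i. The gtf2i brains were thus all lower than wt (log2 fold change -0.50, SE 0.15, adjusted p 1 by edgeR), and the gtf2i/gtf2i brains higher (2.64, adjusted p 7.44e-08). The step from gtf2i to gtf2i/gtf2i was 3.14 (adjusted p 1.26e-08).

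Ttr, the thyroid hormone carrier made by the choroid plexus, had a log2 fold change of 0.32 in gtf2i (0.14 to 0.50 when single libraries were left out) and -1.63 in gtf2i/gtf2i. Neurod6, a transcription factor of cortical excitatory neurons, had 0.22 (0.13 to 0.41 by the same measure) and -1.30. Tnc, a matrix protein of radial glia, had 0.11 (-0.06 to 0.32) and -1.43. For these 3 genes wt and gtf2i overlapped, and the step from gtf2i to gtf2i/gtf2i was called, at -1.95 for Ttr, -1.52 for Neurod6 and -1.55 for Tnc (adjusted p 8.77e-05, 0.000104 and 0.00237 by edgeR). Pnpla6, a lysophospholipase, had 0.18 (0.11 to 0.24) and 1.49, and the mRNA export factor Nxt2 had 0.25 (0.13 to 0.40) and 1.69. The protocadherin gene Pcdhb16, which has close paralogs in its cluster, had -0.49 in gtf2i and -1.28 in gtf2i/gtf2i. None of these genes other than Gtf2i was called in gtf2i. On a list of 17 strong responders in gtf2i/gtf2i, taken from earlier results on these libraries and so no independent evidence, 2 were higher and 3 lower in gtf2i at an unadjusted p under 0.05 (0.624% and 0.974% of all genes).

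Marker lists showed the tissue as labelled. All 20 listed neuronal and all 17 listed dorsal telencephalon markers were in the table, and 0 of 10 skeletal muscle markers were present. In whole tissue, fewer cells of a type and less RNA per cell cannot be told apart. No list other than that of the TFII-I family held a called gene, against 0.00854% of all genes. The median log2 fold change of all genes was 0.00, with 49.6% of genes higher.

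Midbrain and hindbrain transcription factors were lower in gtf2i for 14 of 15 genes, with a median of -0.22. Their summed level was 1060 to 1120 CPM in wt and 906 to 1020 CPM in gtf2i, without overlap. Of 26 lists, this one, the TFII-I family and the escaping X-linked genes separated by mean log2 level. Libraries without a group difference would do so with probability 0.1 per list. Among the 15 genes, 3 were lower and 0 higher without overlap, against 3.91% and 3.33% of all genes. Lhx5, a LIM homeodomain factor, was at 90.4, 80.3 and 75.6 CPM in wt and 71, 70.6 and 69.5 CPM in gtf2i (log2 fold change -0.22), the 1 gene of the 15 at an unadjusted p under 0.05 (1.6% of all genes). Tal1, a factor of midbrain GABAergic neurons that is also expressed in blood and endothelium, had -0.23 without overlap. Among libraries that share a title number, whose meaning the labels do not give, the list's median was -0.25, -0.23 and -0.12. In gtf2i/gtf2i against the same wt the list's median was 0.23.

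Dorsal telencephalon markers were higher for 14 of 17 genes, with a median of 0.13. Fezf2, a factor of subcortical projection neurons, was at 43.4 to 53.6 CPM in wt and 57.3 to 58.5 CPM in gtf2i. Its log2 fold change was 0.22 (0.14 to 0.29 when single libraries were left out). Without overlap, 1 gene of the list was higher and 1 was lower, against 3.33% and 3.91% of all genes. Summed over the list, the level was 2420 to 2900 CPM in wt and 2660 to 2840 CPM in gtf2i, which overlap. By title number the medians were 0.11, 0.29 and -0.01, and without wt replicate 2 the list's median was 0.06. In gtf2i/gtf2i the median was -0.56 and 8 of the 17 genes were called, against 0.94% of all genes.

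Endothelial markers were lower for 17 of 18 genes. Their median was -0.16 (-0.20, -0.16 and -0.07 by title number), and it was -0.04 without gtf2i replicate 1 and -0.06 without wt replicate 1. They had summed levels of 703 to 846 CPM in wt and 613 to 744 CPM in gtf2i. Red blood cell genes were lower for 9 of 12, with a median of -0.09 that was -0.20 without wt replicate 2 (-0.26, 0.05 and -0.06 by title number). The embryonic globin Hbb-bh1, whose reads may be shared with other globins, had -0.62 (-0.85 to -0.41 when single libraries were left out). These lists overlapped between the groups, and their part in the other values was not tested. Of 9 choroid plexus genes 6 were higher, and 1 was at an unadjusted p under 0.05, as was 1 of the 12 red blood cell genes (1.6% of all genes). Folr1, the folate receptor of the choroid plexus, was at 3, 3.2 and 3.54 CPM in wt and 5.38, 5.35 and 7.88 CPM in gtf2i, a log2 fold change of 0.91 (SE 0.243, unadjusted p 0.00194, adjusted p 1 by edgeR). The wt brains of the ird1 comparison had 5.42, 5.41 and 6.25 CPM of Folr1 (scaled over 18 libraries), inside the range of the gtf2i brains. The median of the choroid plexus list was 0.03.

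Cell cycle genes were higher for 20 of 22, by small amounts. Their summed level was 2110 to 2290 CPM in wt, 2640 CPM in gtf2i replicate 1, and 2120 and 2200 CPM in the other gtf2i brains, inside the wt range. Their median was 0.05, and -0.02 without gtf2i replicate 1. By title number (11619, 12301 and 12419) the medians were -0.06, 0.17 and 0.06, with 8, 21 and 16 of 22 genes higher. Pan-neuronal genes had a median of -0.01 (8 of 20 higher), radial glia genes 0.01 (9 of 17), synapse and channel genes 0.01 (16 of 30) and axon guidance genes 0.01 (19 of 33). By the same title numbers, synapse and channel genes had 0.19, -0.08 and -0.06, with 26, 10 and 6 of 30 higher. Pan-neuronal genes had 0.07, -0.03 and -0.12, radial glia genes -0.09, 0.08 and 0, and axon guidance genes 0.07, -0.04 and -0.06. In these 4 lists, 0 genes were at an unadjusted p under 0.05, against 1.6% of all genes.

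Of the imprinted genes, 10 of 21 were higher and the median was 0.00. Cdkn1c, a cyclin-dependent kinase inhibitor in the domain that Kcnq1ot1 silences on the paternal chromosome, was at 247, 255 and 238 CPM in wt and 223, 228 and 209 CPM in gtf2i. Its libraries did not overlap, with a log2 fold change of -0.17 and an unadjusted p of 0.0454 (edgeR). Kcnq1ot1 and Cdkn1c were the 2 imprinted genes at an unadjusted p under 0.05, and both were lower (0.974% of all genes).

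In the 9 lists of the mitochondrial genome, other cell types and stress responses that follow, 0 genes were at an unadjusted p under 0.05, against 1.6% of all genes. All 7 mitochondrially encoded transcripts were lower, with a median of -0.15 that became -0.01 without wt replicate 3. By title number 12301 all 7 were higher in gtf2i (median 0.09), and by 12419 all were lower (-0.50). Their summed levels of 6230 to 9230 CPM in wt and 6270 to 8370 CPM in gtf2i overlapped. Medians were -0.03 for ventral telencephalon and GABAergic genes (7 of 17 higher), -0.03 for intermediate progenitors (4 of 10) and 0.02 for the oligodendrocyte lineage (4 of 8). Eomes, which marks intermediate progenitors, had a log2 fold change of 0.26 with no overlap. Mesenchyme and meninges had a median of 0.01 (12 of 21 higher), microglia and macrophages 0.13 (5 of 6, -0.02 without wt replicate 2), and p53 targets 0.02 (9 of 14). Immediate early genes had -0.01 (5 of 11) and hypoxia and glycolysis genes 0.00 (7 of 14).

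Genes tied to TFII-I by earlier work varied little. Partners and cofactors of TFII-I, such as the histone demethylase Kdm1a (0.10) and the serum response factor Srf (-0.17, and -0.22 to -0.10 when single libraries were left out), ranged from -0.17 to 0.10, with 17 of 24 higher. Reported TFII-I target genes ranged from -0.18 to 0.12, with 6 of 19 higher. The cyclin Ccnd1 had -0.18 in gtf2i, and it was called at 0.55 in gtf2i/gtf2i (adjusted p 0.0353 by edgeR). The VEGF receptor Kdr had -0.11 (-0.16 to -0.04 when single libraries were left out). In neither list was a gene at an unadjusted p under 0.05, against 1.6% of all genes.

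**Figure D5:**
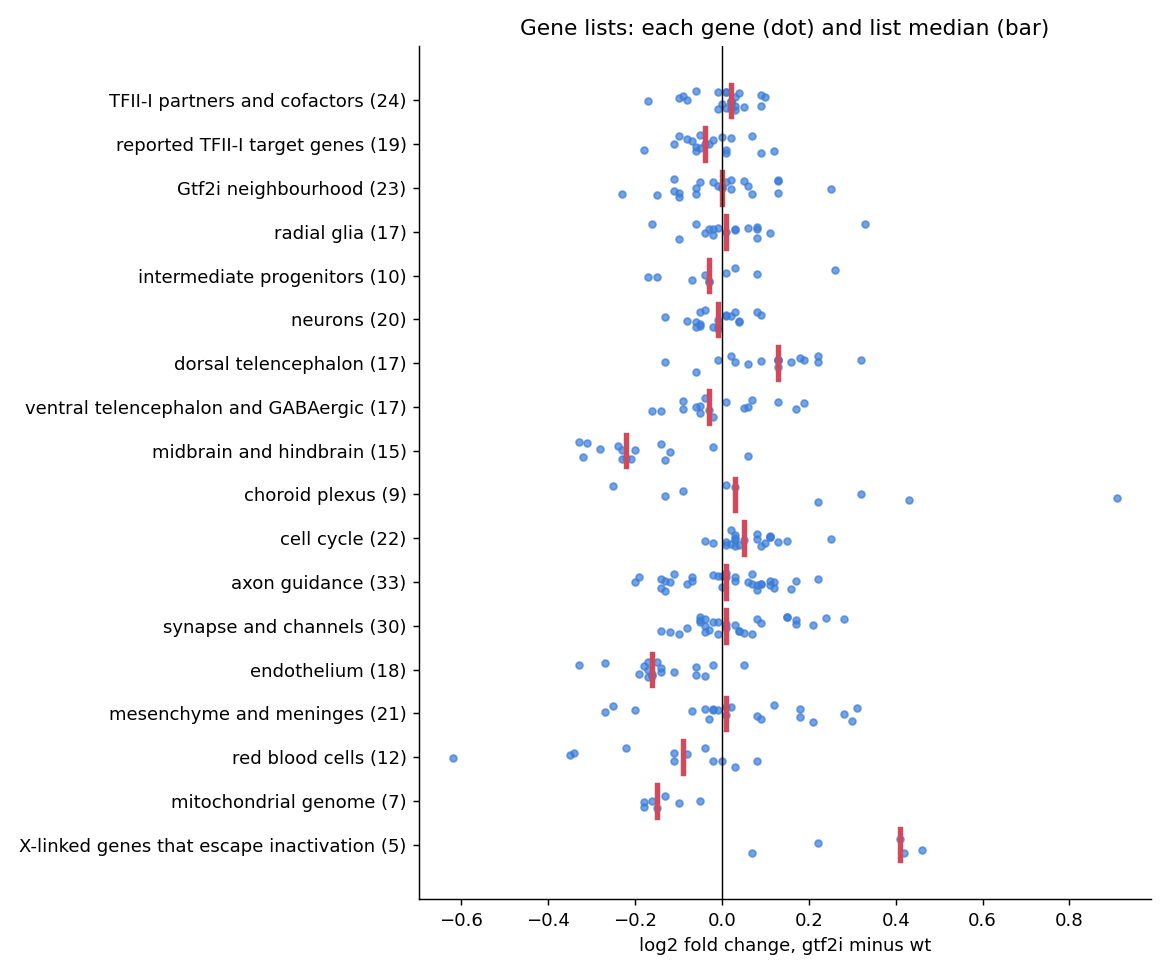
Log2 fold change of gtf2i against wt for the genes of 18 lists, with the number of measured genes in parentheses. Dots are genes and red bars are list medians, which run from -0.22 for midbrain and hindbrain to 0.41 for X-linked genes that escape inactivation.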

How the data were processed

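RNA from whole E13.5 brains was measured as read counts per gene. The authors deposited 1 table of raw whole-number counts for 11708 Ensembl genes, with no normalization, made with Trimmomatic, STAR and HTSeq and build mm10 per the submitters' processing notes. Versions, the strand setting and the filter are not given in the sources used here. The smallest value in every library was 2.9 to 3.09 CPM, so low genes had been removed upstream. The 6 libraries held 5411701 to 7231162 counts. The median count was 211.5 to 292 (6.88% counting error at the lowest) and the smallest count was 16 (25%). These errors cover counting only.

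Libraries were scaled with TMM factors, and filterByExpr removed 0 genes. The main test was edgeR's quasi-likelihood test (edgeR 4.0.16, limma 3.58.1, R 4.3.3) on the 9 libraries labelled wt, gtf2i and gtf2i/gtf2i, with Benjamini-Hochberg adjustment at 0.05, 6 residual degrees of freedom and a biological coefficient of variation of 10.4%. The difference between gtf2i and ird1 effects used all 18 libraries. Standard errors and 95% intervals are Wald values. Chi-square per degree of freedom between libraries of 1 group was 3.51 to 29.5 over 9 pairs, so none was a repeat of another. The scripts were tested on simulated data.

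Named genes were the TFII-I family, called genes, the 8 higher and 8 lower genes with the smallest unadjusted p and no overlap (mean log2 CPM of at least 3), the 5 largest called rises and falls in gtf2i/gtf2i, and the genes with the smallest p in each list. The text names only part of the last group. The Y RNAs and Dbx1 were chosen after their values were seen. The members, lists and tests were chosen with earlier results of these data known. Of 483 listed symbols, 394 were in the table. Positions and promoter sequences are from RefSeq GRCm38.p6, where 11392 symbols were found. The 32 chromatin immunoprecipitation and input samples were not analysed here. Alternatives included DESeq2 1.42.0, other scaling, filters and sample sets, the title number as a block, and leaving out each library.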

Additional observations from a re-analysis of the deposited data

Results flagged for a closer look

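The effect of 1 mutant allele differed between the gtf2i and ird1 comparisons for 2 of 11708 genes, by a test of the difference itself (edgeR's quasi-likelihood test, all 18 libraries). Gtf2i differed by -0.72 on the log2 scale (adjusted p 0.00291), with log2 fold changes of -0.76 in gtf2i and -0.04 in ird1. As Gtf2i is the gene mutated in the gtf2i comparison only, its difference follows from the design. Apobec3 differed by 1.87 (adjusted p 0.00965), with log2 fold changes of 1.26 in gtf2i and -0.60 in ird1. The Apobec3 call was lost without wt replicate 2, wt replicate 3 or replicate 1 of the ird1 comparison's wt.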

How the results depend on the processing

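Gtf2i was called under all 20 alternatives to the main test, with log2 fold changes from -0.81 to -0.73. The number of genes called, 1 in the main test, was 6 by DESeq2, 5 with the wt and gtf2i libraries alone and 3 with all 18 libraries. It was 2 with the title number as a block (replicate block), 5 with that block and the length trend removed, and 2 with the level of X-linked escaping genes as a covariate, and it ran from 1 to 4 when single libraries were left out. The extra genes came from Gtf2ird1, Apobec3, Hccs, Msl3, Mid1, Prps2 and Kdm5c. Without gtf2i/gtf2i replicate 1, 4 genes were called, and without gtf2i/gtf2i replicate 3 also 4. Unadjusted counts, 187 in the main test, ran from 102 (DESeq2) to 1664 (X-linked covariate). The block gave 336. The main test did not treat the title numbers as pairs, as the labels do not give their meaning. Its SEs therefore ignore any pairing. With the block the SE of Hccs was 0.166 against 0.201, and that of Apobec3 was 0.22 against 0.218. Deviations of gtf2i and wt libraries with the same number correlated at 0.28, 0.354 and 0.0484, and each of the 6 libraries correlated best with its own number. Gtf2ird1 passed the threshold at 0.56 by DESeq2, at 0.55 with the wt and gtf2i libraries alone, with the 18 libraries together and with block and length trend, and at 0.73 with the X-linked covariate. It also passed without gtf2i/gtf2i replicate 3 (leave-one-out range 0.49 to 0.60). The difference between gtf2i and ird1 effects called 1 or 2 genes when single libraries were left out, and it called 1 without wt replicate 2, wt replicate 3 or replicate 1 of the other wt group. Under the X-linked covariate, which separates these groups nearly as the genotype does, the sign turned for Gtf2ird2 (0.07), Ttr (-0.14), Neurod6 (-0.05), Hes5 (0.07), Hes6 (0.10), Slc2a1 (0.11), Bax (0.02), Cacna1a (-0.13), Gria1 (-0.05) and Kdm6a (-0.06), the median of dorsal telencephalon markers was -0.04, of midbrain and hindbrain factors -0.50, of endothelial markers 0.06, of mitochondrial transcripts -0.63, of neuronal genes -0.28, of synapse and channel genes -0.25, of axon guidance and of choroid plexus genes -0.14, of cell cycle genes 0.22 and of hypoxia genes 0.21. Mid1 was at -0.35, Msl3 at -0.50, Kcnq1ot1 at -0.24, Hbb-bh1 at -0.12 and Srf at -0.06. Rps4l was at -0.28, Ccnd1 at -0.02, Limk1 at -0.01, Kdr at -0.04, Kdm5c at 0.25 and Tnc at 0.03. Larger in size than in the main test were Eomes at 0.55, Fezf2 at 0.50, Eln at 0.41 and Tal1 at -0.39. The escaping genes' own median, from which this covariate is built, was -0.08. Leaving out single libraries turned the sign of the median of 14 of 26 gene lists, microglia with a median of 0.13 and the others with medians of 0.05 or less in size. It also turned Gtf2ird2 (0.01 without wt replicate 1, 0.02 without gtf2i replicate 2), Tnc (-0.06 to 0.32, negative without gtf2i replicate 3) and C1qa (-0.05 to 0.36, negative without wt replicate 2). The causes were not tested. Precision was lower at low counts. Of the 2927 lowest by level, 57.9% had 95% intervals within a 1.5-fold change, against 99.2% of the 2927 highest.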

Other observations

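The Y RNAs Rny1 and Rny3, noticed after their values were seen, varied several-fold within each genotype. Rny3 was at 352, 1650 and 1220 CPM in wt and 288, 1050 and 452 CPM in gtf2i, in the order of the title numbers 11619, 12301 and 12419, and Rny1 was at 247, 1010 and 763 CPM in wt and 214, 615 and 302 CPM in gtf2i. In both genotypes the libraries numbered 11619 were lowest and those numbered 12301 highest, and within each number both RNAs were lower in gtf2i. The log2 fold changes were -0.85 (SE 0.537) for Rny3 and -0.84 (SE 0.49) for Rny1, with an adjusted p of 1 for both (edgeR).

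Dbx1, a homeodomain factor of progenitor domains in the hindbrain, spinal cord and forebrain borders, was on none of the lists and was noticed after its values were seen. It was at 53.9, 57.3 and 52 CPM in wt and 38.5, 43.7 and 40.8 CPM in gtf2i, without overlap (log2 fold change -0.41, SE 0.127, adjusted p 1 by edgeR). In gtf2i/gtf2i it was at 87.2 CPM on average, a log2 fold change of 0.68 against the same wt libraries (adjusted p 0.0191), and the step from gtf2i was 1.09 (adjusted p 0.000507).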
